A study of Homo sapiens with 6 samples.

Results

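The genes described here are the nuclear genes of oxidative phosphorylation (OXPHOS), the 5 protein complexes of the mitochondrial inner membrane that pass electrons to oxygen and make ATP. They were chosen by symbol alone, as protein-coding genes of the Gencode release 44 annotation on nuclear chromosomes. Their names start with NDUF, SDH or COX followed by a subunit code, or with UQCR or ATP5 followed by anything. Only the start of most names was matched, so ATP5IF1 and COX7A2L, for example, are included whatever their role. The 48 assembly factor genes described further below do not match. The rule gave 89 genes of 20033, with 39 genes of complex I, 4 of complex II, 9 of complex III, 17 of complex IV and 20 of complex V. A peak was counted for a gene when its summit lay in the gene body or up to 4 kb past its 3′ end, which gave 472 of the 200023 peaks in the list.

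Poly(A) 3′-seq, which reads the junction between a transcript and its poly(A) tail, was run on IMR-32 cells, a human neuroblastoma line. The cells were given DMSO, the solvent, or THZ531, a compound that binds and blocks the transcriptional kinases CDK12 and CDK13, at 400 nM for 2 h or for 6 h, with 2 libraries in each of the 3 groups. Peaks were called once on merged reads. The list holds no value for a single library, so DMSO and THZ531 cells could not be compared, no replicate error exists, and the depth of each library is unknown. Every value below describes the pooled list, with no test, and a peak can come from treated cells, untreated cells or both. The list also gives no strand, so a peak where 2 genes overlap cannot be assigned to either of them.

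Complex I takes electrons from NADH, and complex II takes them from succinate and is also an enzyme of the citric acid cycle. Complex III passes them from ubiquinol to cytochrome c, complex IV hands them to oxygen, and complex V is the ATP synthase that the resulting proton gradient drives. A few central subunits of complexes I, III, IV and V are encoded in the mitochondrial genome, and the rest are made in the cytosol from nuclear genes. Those that match the symbol rule are described here, and CYC1 and NDUFAB1, for example, do not match it. In most such genes the messenger RNA ends where cleavage follows a short signal, most often AATAAA, and a transcript that is cut and polyadenylated inside an intron cannot encode the whole protein. Groups by complex follow the symbols, so NDUFA4 and NDUFA4L2 are counted with complex I although NDUFA4 protein is found in complex IV.

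The sequences below are from the GRCh38 genome, read 5′ to 3′ on the strand of the gene, and each ends at the 3′ edge of a peak. Capitals mark 1 of 12 known poly(A) signal hexamers starting 15 to 30 bp before the edge. The first set shows peaks with such a signal at the canonical end, the 3′ end of the transcript that Gencode marks as canonical, with the edge within 10 bp of it, and holds up to 2 of the tallest such peaks of each complex.
NDUFB1, chr14:92116124-92116153, minus strand: tgagagaAATAAAaacatgaagaatctgaa
NDUFB3, chr2:201085723-201085752, plus strand: aatcaATTAAAatatatatatatgccaatc
SDHD, chr11:112095763-112095792, plus strand: gttatatAATAAAagtgtcttctatgcttt
UQCRC1, chr3:48598995-48599024, minus strand: ccAATAAAatcctctgctgagaagtgtgtc
UQCRH, chr1:46316746-46316775, plus strand: ccatctaAATAAAagttctatgatctgcaa
COX6B2, chr19:55349701-55349730, minus strand: gtaAATATAtactctcaacatttaaaagat
COX8A, chr11:63976521-63976550, plus strand: cAATAAAatctatttaaactttacttcaga
ATP5MC2, chr12:53665163-53665192, minus strand: aAATAAAtactgtattaataagatgtttct
ATP5F1B, chr12:56638171-56638200, minus strand: tccAATAAAatgtacacccctcagaatttg

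The next set shows genes whose tallest peak lay well upstream of the canonical end, together with the tallest intronic peak that had a signal close to its edge and a pair of canonical ends with no hexamer in the last 100 bp.
UQCRFS1, upstream peak, chr19:29207267-29207296, minus strand: aATTAAAaattacagactggtgtacaagat
ATP5MC3, upstream peak, chr2:175178136-175178165, minus strand: tcATTAAAgatgaaaactttaatttcttct
NDUFB6, upstream peak, chr9:32553521-32553550, minus strand: atcacAATAAAcaaatgtaagaacagcaat
ATP5F1A, upstream peak, chr18:46084145-46084174, minus strand: atgaaaAATAAAggttccataatgcatagt
ATP5F1A, canonical end, chr18:46080252-46080281, minus strand: gacttgtattttaaaaactatttgttaact
NDUFB10, canonical end, chr16:1962159-1962188, plus strand: acgaggtggtcagtgaactcctgataggga
SDHA, peak in intron 6, chr5:230158-230187, plus strand: tttcacaaAATAAAtcatcacgctgtacac

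The main set held peaks with a −log10 q-value of 5 or more, which kept 388 of the 472 peaks. Of these, 7 were shared by 2 of the genes, because the readthrough genes NDUFC2-KCTD14 and ATP5MF-PTCD1 run over NDUFC2 and ATP5MF. Each summit was placed at a transcript end (200 bp before to 600 bp past any annotated end), in an exon or in an intron. Ends of any gene on either strand were counted, so this class includes ends of neighbouring genes. Of the OXPHOS peaks, 17 lay more than 600 bp past the gene at the end of another coding gene. Transcript ends held 46.6% of the OXPHOS peaks (95% Wilson interval 41.7% to 51.6%, 181 peaks), whereas in all protein-coding genes they held 24% of 117710 peaks. Introns of the genes themselves held 34.0% (29.5% to 38.9%, 132 peaks) against 62.8% over all protein-coding genes. Exons held 12.9% and 11.2%, respectively. These shares were not compared at matched gene length or density of neighbouring genes. These intervals, like all intervals here, cover counting error only and not the spread between libraries.

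**Figure D1:**
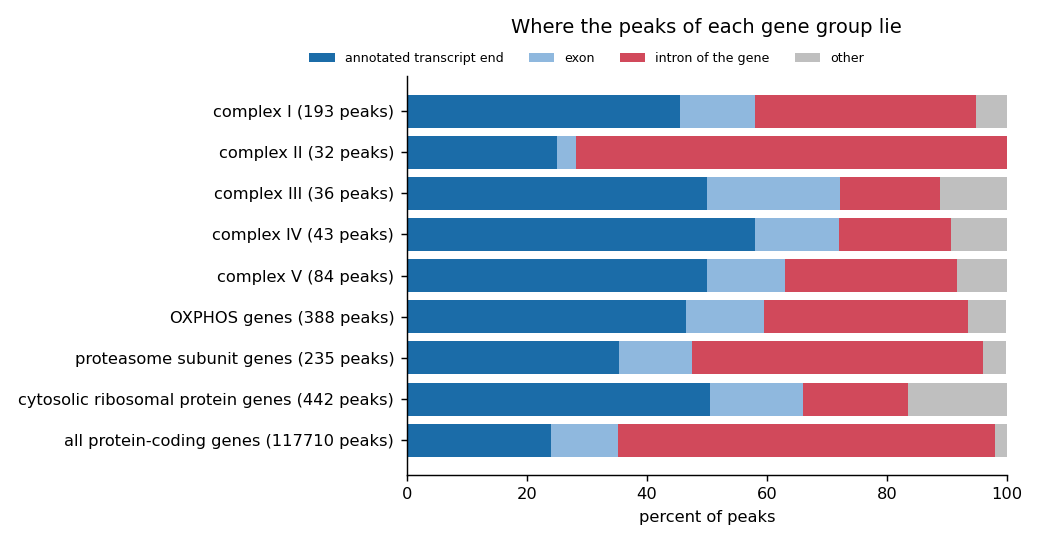
Share of peaks by place of the summit (horizontal axis, percent of peaks with −log10 q of at least 5) for each complex, all OXPHOS genes and 3 reference groups. Annotated transcript ends, of the gene or of a neighbour, held 46.6% of OXPHOS peaks and 24% of peaks in all protein-coding genes. Complex II was the group with the largest intronic share.

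The complexes differed from each other in this make-up. Complex II, with 4 genes that are all at least 33.2 kb long, had 23 of its 32 peaks in introns (71.9%, interval 54.6% to 84.4%). Complex IV, whose median gene was 7.09 kb long, had 8 of 43 (18.6%, 9.74% to 32.6%), and complex III had 6 of 36 (16.7%, 7.87% to 31.9%). Complexes I and V lay between, with 36.8% and 28.6% of their peaks in introns. Among groups of housekeeping genes, proteasome subunit genes had 35.3% of 235 peaks at ends and 48.5% in introns, and cytosolic ribosomal protein genes had 50.5% of 442 at ends and 17.4% in introns.

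A peak at the canonical transcript end was found in 72 of the 89 OXPHOS genes (80.9%), beside 53.6% of all protein-coding genes. Any annotated end of the gene had a peak in 83 (93.3%), beside 64.1%. The first share was 82.8% in 87 ribosomal protein genes and 74.4% in 39 proteasome genes. By complex it was 34 of 39 in complex I, 3 of 4 in complex II, 7 of 9 in complex III, 11 of 17 in complex IV and 17 of 20 in complex V. OXPHOS genes are short, with a median length of 12.1 kb against 27.5 kb, and this share was not compared at matched length or expression.

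At the tallest canonical-end peak of each gene, the median number of reads at the summit was 32, with quartiles of 24 and 42.25, against 22 (16 and 32) over all protein-coding genes. The highest had 88 reads and the lowest 14. The peak caller's default, where it was used, counts each start position once per strand, and the most reads at any summit in the list was 200, the limit that 100 bp reads and 2 strands would give. The height therefore counts distinct read starts near the end and is not a level of the messenger RNA. Of the 72 genes, 56 lay above the median of all genes, 12 below it, and 16 were in the top 10% of all genes. In the 10 kb around the summit, which includes neighbouring genes, the median was 223 reads against 133. When only canonical ends outside every other gene and every other coding gene's end were kept, 45 OXPHOS genes had a median of 31 reads and 6686 protein-coding genes a median of 21. Ribosomal protein genes were higher than OXPHOS genes, with a median of 50.5 reads and 715 in 10 kb, and proteasome genes had 27 and 207.

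**Figure D2:**
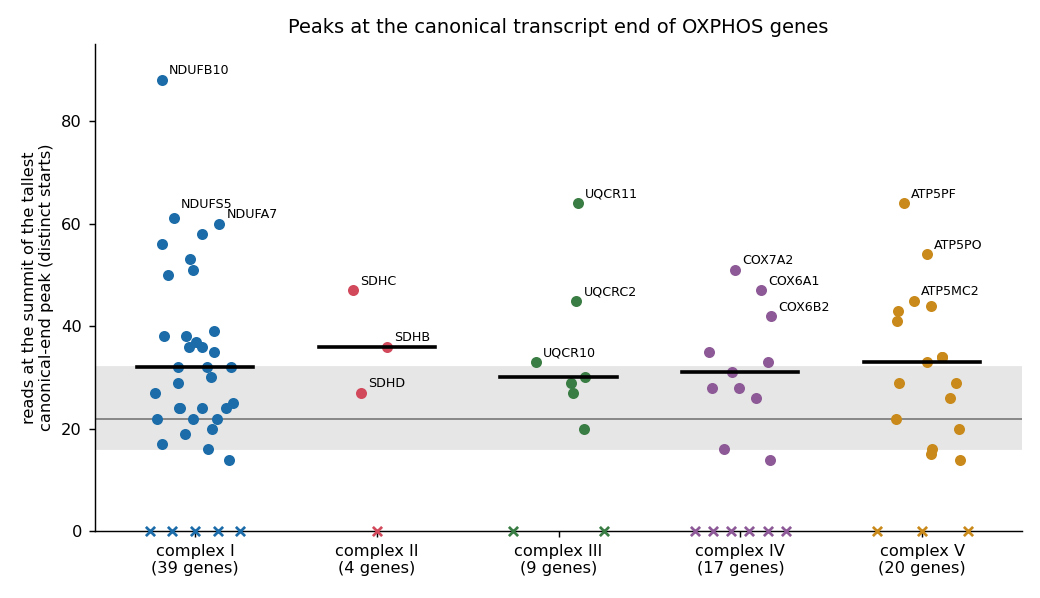
Reads at the summit of the tallest canonical-end peak (vertical axis, reads with distinct starts) of each OXPHOS gene, by complex. Points are genes, black bars medians of the genes with such a peak, crosses at 0 the genes without one, and the grey line and band the median and quartiles of all protein-coding genes (22, with quartiles of 16 and 32). The medians of the 5 complexes lay between 30 and 36 reads, all above the grey line.

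The medians of the complexes were close to each other, at 32 reads for complex I, 36 for II, 30 for III, 31 for IV and 33 for V, and their ranges overlapped. In complex I the tallest canonical-end peaks belonged to the accessory subunit genes NDUFB10 with 88 reads, NDUFS5 with 61 and NDUFA7 with 60. The peak of NDUFB10 also lay at the 3′ end of RPS2, a ribosomal protein gene on the other strand, with 1301 reads in 10 kb, the most of any OXPHOS canonical end, so its height cannot be given to NDUFB10. In complex II, SDHC had 47 reads, SDHB 36 and SDHD 27. SDHB carries the iron-sulfur clusters of the enzyme, and SDHC and SDHD anchor it in the membrane. UQCR11 with 64, UQCRC2 with 45 and UQCR10 with 33 led complex III, where UQCRC2 is a core protein and the other two are small subunits. In complex IV, COX7A2 had 51, COX6A1 47 and COX6B2 42. ATP5PF had 64, ATP5PO 54 and ATP5MC2 45 in complex V.

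The core subunits of complex I hold its flavin, its iron-sulfur clusters and its quinone site. Among the nuclear core genes, the canonical-end peak of NDUFV2 had 32 reads, that of NDUFS1 29, that of NDUFV1 27, that of NDUFS3 25, that of NDUFS7 22 and that of NDUFS8 16. None of these values was above the median of 32 over complex I genes.

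In the ATP synthase, the F1 head makes ATP, the ring of c subunits turns with the protons, and the peripheral stalk holds the head still. The head genes had 43 reads (ATP5F1B, the catalytic subunit), 41 (ATP5F1C), 22 (ATP5F1D) and 15 (ATP5F1A), and ATP5F1E had no peak at its canonical end. Of the 3 c subunit genes, which encode the same mature protein, ATP5MC2 had 45 and ATP5MC1 29, and ATP5MC3 had none there. In the stalk, ATP5PF had 64, ATP5PO 54 and ATP5PD 34, and ATP5PB had none. All 4 stalk genes and all 12 genes of these lists had a peak at some annotated end.

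Several subunits have isoforms that are restricted to tissues such as heart, muscle, lung or testis, and a partner that most cells use. All 8 partner genes had a canonical-end peak, namely COX7A2 (51 reads), COX6A1 (47), COX8A (35), COX6B1 (31), COX4I1 (28), COX7B (28), NDUFA4 (14) and ATP5MG (14). Of the 8 restricted isoform genes, 4 had one. COX6A2, the heart and muscle form, had no peak of any strength, and COX7B2 had only 1 below the cutoff. COX7A1, the muscle form, and COX8C had peaks only past their ends, in the bodies of CAPNS1 and UNC79. COX4I2, the lung form, had 14 reads with its edge 17 bp past the annotated end and no other gene there. COX6B2, the testis form, had 42 reads with its edge 3 bp past the annotated end, beside 31 for its partner COX6B1. Over the local background the order was reversed. The fold enrichment was 8.46 for COX6B2, with 408 reads in 10 kb, and 18.5 for COX6B1, with 73. The 39 reads of NDUFA4L2 had their edge 280 bp past its end, where SHMT2 also lies. ATP5MGL had 26 reads, lies in CYB5R3, and is a near-copy of ATP5MG. The latter shared 84 of the 100 bases before the peak edge, and whether reads were misplaced was not tested. UQCRHL, an intronless copy of UQCRH, had 20 reads, with its peak edge 204 bp past its annotated end. Of the 100 bases before that edge, 46 matched UQCRH. Of the 100 bases before the edge of the canonical-end peak of UQCRH, 76 matched UQCRHL. Whether reads were misplaced between these 2 genes was not tested.

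The edges of the canonical-end peaks were close to the annotation. Of 72 tallest peaks, 38 (52.8%) had the 3′ edge within 10 bp of the annotated end and 51 (70.8%) within 50 bp. Over all protein-coding genes these shares were 61.0% and 75.4%. Outside other genes and their ends the first share was 57.8% for OXPHOS genes and 69.9% for all. A hexamer lay in the 100 bp before the edge in 66 of 72 (91.7%, interval 83% to 96.1%), against 88.0% for all genes. The same 12 hexamers were found on the opposite strand of these windows in 55.6% and 62.4%, given as a reference. AATAAA was in 46 windows (63.9%, 52.4% to 74%) against 62.7%, and on the opposite strand in 19.4% and 19.2%. With each window counted once, in the order searched, ATTAAA followed in 10 genes. AGTAAA was found in 1, TATAAA in 4, AATACA in 1, GATAAA in 2, AATGAA in 1 and ACTAAA in 1 of the rest. The remaining hexamers searched gave no further window. These were AATATA and, as the next, CATAAA. The last of them were AAGAAA and then AATAGA. Where AATAAA was present, its start lay a median of 30.5 bp before the edge in OXPHOS genes (quartiles 25 and 41.8) and 26 bp in all genes (23 and 34).

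**Figure D3:**
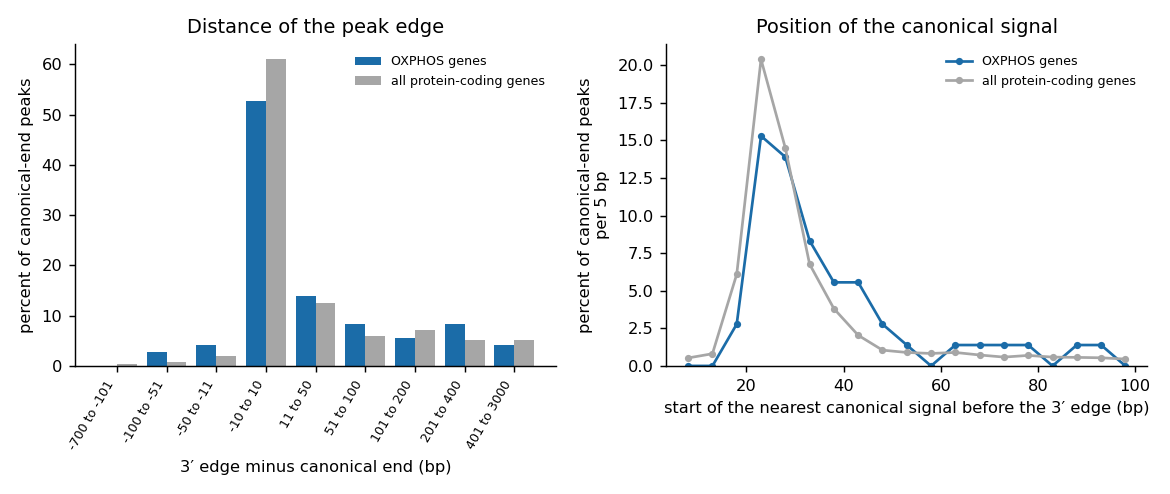
Left, distance of the 3′ edge of the tallest canonical-end peak from the annotated end (bins in bp, unequal widths), as percent of peaks. Right, start of the nearest AATAAA before that edge, in bins of 5 bp, as percent of peaks. Blue shows OXPHOS genes (72 peaks) and grey all protein-coding genes (10730 peaks), and most edges lay within 10 bp of the annotation in both.

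The 6 OXPHOS genes whose canonical-end peak had no hexamer were NDUFB10, UQCRQ, NDUFB7, NDUFB11, ATP5MF-PTCD1 and ATP5F1A. In 5 of them the edge lay 140 to 236 bp past the annotated end, so the window searched lay wholly past it. At the canonical ends of NDUFB10, NDUFB7 and ATP5MF-PTCD1 the end of another coding gene (RPS2, TECR and BUD31) lay at the summit. ATP5F1A was the exception, with its edge 4 bp before the annotated end and a low peak of 15 reads.

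In 53 of the 85 genes with a peak in the body or up to 600 bp past the end, the tallest peak was at the canonical end (62.4%, interval 51.7% to 71.9%), beside 37.5% of the 14886 protein-coding genes with such a peak. In 24 it was at another annotated end of the same gene (28.2%, 19.8% to 38.6%), beside 18.8%, and in 2 in an exon, beside 12.1%. In 3 it was in an intron (3.53%, 1.21% to 9.87%), beside 24% of all, and in 3 at the end of another gene, beside 7.55%. For 3 of the 26 at another own end or in an exon, COX5B, COX6C and COX7C, the edge was within 53 bp of the canonical end. These peaks were 290 to 593 bp wide, with the summit more than 200 bp upstream. In the other 23 the edge lay 299 to 8895 bp upstream, with a median of 1511 bp, and 20 of the 23 (87%, interval 67.9% to 95.5%) had a hexamer in the 100 bp before it, beside 79.9% of such peaks in all protein-coding genes. A tallest peak at another own end or in an exon with its edge at least 200 bp upstream was found in 27.1% of OXPHOS genes (18.8% to 37.3%), near the 27.5% of all protein-coding genes.

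**Figure D4:**
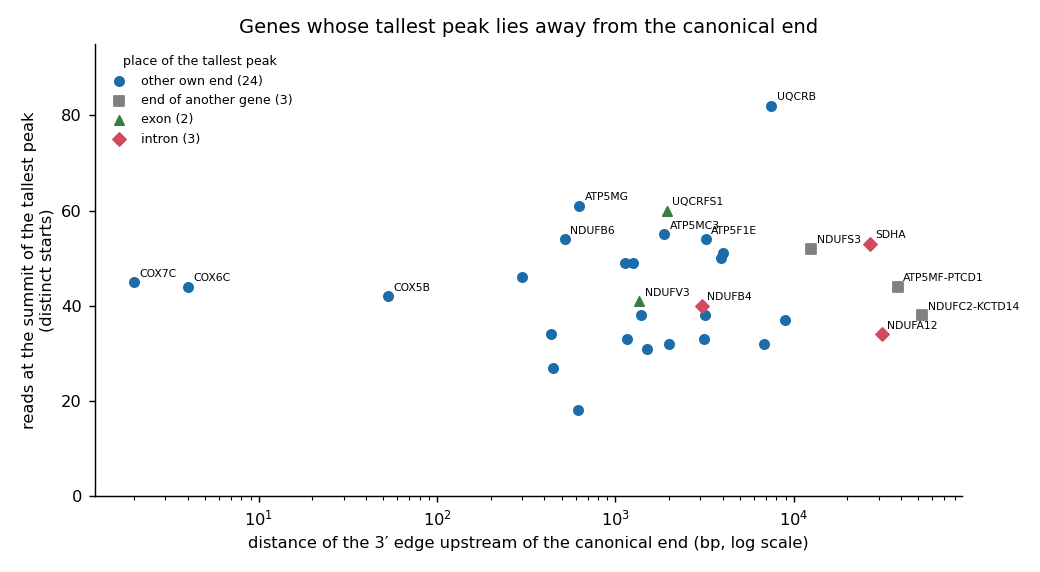
The 32 OXPHOS genes whose tallest peak lay away from the canonical end, with the distance of its 3′ edge upstream of that end (horizontal axis, bp, log scale) and the reads at its summit (vertical axis). Symbols give the place of the peak. Most points at other annotated ends of the same gene lay at least 299 bp upstream, and UQCRB was the highest with 82 reads.

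ATP5F1A, the alpha subunit of the F1 head, had 50 reads 3897 bp upstream of its canonical end against 15 at that end, and the upstream window ended in the AATAAA shown above. NDUFV3, a subunit next to the flavin site of complex I, had 41 reads in an exon 1365 bp upstream and 20 at the end. NDUFA4 had 31 reads 1511 bp upstream against 14, and ATP5MG 61 reads 626 bp upstream against 14. COX7B and COX5A differed less, with 32 against 28 and 34 against 33 reads.

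Of the 17 genes with no canonical-end peak, 11 had at least 1 peak at another annotated end. UQCRB, a ubiquinone-binding subunit of complex III with a last exon of 8186 bp, had 82 reads 7496 bp upstream. NDUFA5 had 5 peaks in its last exon of 5224 bp, and the tallest, with 51 reads, was 4016 bp upstream of the end. ATP5F1E had 54 reads 3205 bp upstream, ATP5MC3 55 at 1878 bp and ATP5PB 49 at 1254 bp. NDUFA6 had 46 reads at 299 bp, COX7C 45 at 2 bp, COX7A2L and NDUFB5 33 each at 1159 and 3148 bp, and NDUFA3 27 at 447 bp. SDHA, the flavoprotein of complex II, had 28 reads at an own end 280 bp upstream and a taller peak in an intron.

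The other 6 genes, with no peak at any annotated end, were the 4 restricted isoforms named above, NDUFC2-KCTD14 and UQCRFS1. UQCRFS1 encodes the Rieske iron-sulfur protein, the subunit of complex III that moves to hand an electron to cytochrome c1. It had 4 peaks in its last exon of 2839 bp, with 60, 28, 24 and 22 reads. The tallest had its edge 1947 bp before the annotated end, just after an ATTAAA, and none lay at the end itself. In all, 24 OXPHOS genes had at least 2 peaks in the last exon of the canonical transcript and 11 at least 3, led by NDUFS1 with 6 over 9460 bp. These shares, 27% (interval 18.8% to 37%) and 12.4% (7.04% to 20.8%), were close to the 30.4% and 14.2% of all protein-coding genes, whose last exons had a median length of 1401 bp against 295 bp in OXPHOS genes. The genes with most peaks at own annotated ends were NDUFA10 and UQCRC2 with 6 each and NDUFA5 with 5. In UQCRC2 the canonical end had 45 reads, the peak 305 bp upstream 27, and the other 4 between 9 and 12.

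An intronic peak was present in 50 of the 89 genes (56.2%), beside 56.6% of all protein-coding genes. The mean number per gene was lower, at 1.49 (SD over genes 2.13) against 3.93 (8.39). Of the 89 genes, 39 had none, 23 had 1 and 10 had at least 5. NDUFS4, an accessory subunit gene of complex I spread over 123 kb, had 10 intronic peaks of 8 to 20 reads beside 32 reads at its end. NDUFA10 (133 kb) and NDUFC2-KCTD14 (62.9 kb) had 8 each, SDHC 7, SDHA and ATP5MC2 6, and NDUFA9, NDUFS1, SDHB and SDHD 5. Those of ATP5MC2 included peaks 1745, 9241 and 23558 bp past its canonical end, in no intron of its canonical transcript. Several of those of the readthrough gene NDUFC2-KCTD14 also lay in the body of KCTD14.

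The count of intronic peaks followed gene length. All protein-coding genes were divided into 4 equal groups by length. In the shortest group, up to 9.75 kb, 8 of 40 OXPHOS genes had an intronic peak (20%, interval 10.5% to 34.8%), beside 10.8% of all genes of that length. From 9.75 to 27.5 kb it was 22 of 28 (78.6%, 60.5% to 89.8%) beside 54.1%, and from 27.5 to 71.7 kb it was 16 of 16 beside 76.6%. Among longer genes it was 4 of 5 beside 84.9%. The mean numbers per gene were 0.200, 1.32, 4 and 4.80 for OXPHOS genes and 0.144, 1.13, 3.27 and 11.2 for all genes. Within genes that had a peak at an annotated end, the means were 0.222, 1.32, 3.73 and 6.00 against 0.250, 1.54, 4.12 and 14.1. The share of these genes with an intronic peak went the other way, at 22.2%, 78.6%, 100% and 100% for OXPHOS genes against 18.4%, 72%, 92.4% and 97.1%. Per kb of gene, the OXPHOS genes with an annotated-end peak had 0.0421, 0.0839, 0.0975 and 0.0526 intronic peaks, against 0.0466, 0.0869, 0.0904 and 0.0691. OXPHOS genes of the third group were also shorter, with a median of 35.7 kb against 43.9 kb. The longest OXPHOS gene, COX7B2 at 174 kb, had none that passed the cutoff, and the shortest was COX6A2 at 0.630 kb.

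**Figure D5:**
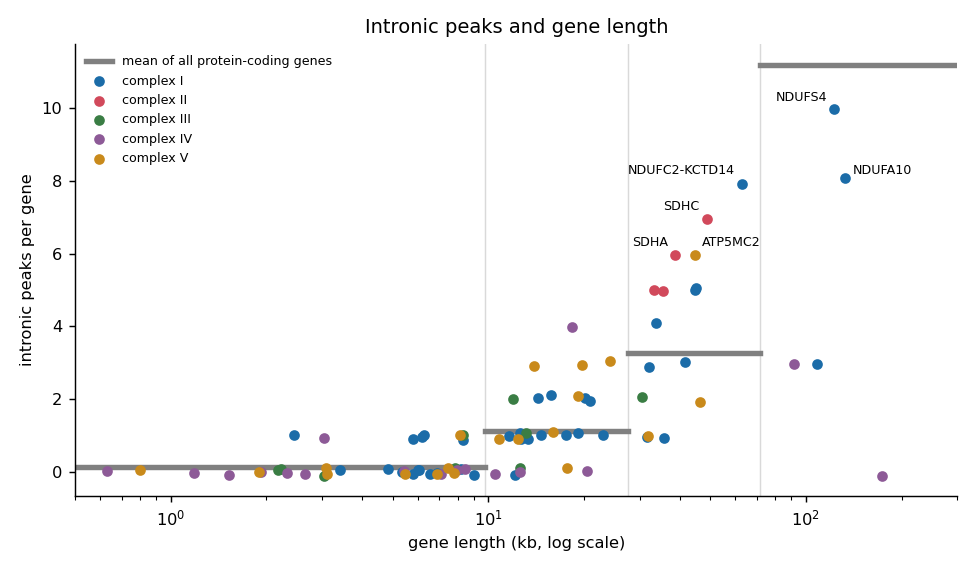
Intronic peaks per gene (vertical axis) by gene length (horizontal axis, kb, log scale). Each point is an OXPHOS gene coloured by complex, with a small vertical shift to separate points. Grey bars are means of all protein-coding genes in the 4 length groups, which rise from 0.144 to 11.2, and NDUFS4 is the highest point with 10 peaks.

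Intronic peaks of OXPHOS genes had a median of 15 reads, below the 32 of their canonical ends, and intronic peaks of all protein-coding genes a median of 12. A hexamer preceded 60 of 132 (45.5%, interval 37.2% to 54%) against 56.9% in all genes, and AATAAA 28 of 132 (21.2%, 15.1% to 28.9%) against 26.4%. Both shares were below those of the canonical ends. The AATAAA share was near the 19.4% on the opposite strand of the canonical-end windows, but no opposite-strand share was taken for the intronic windows. Runs of genomic A can prime the library without a poly(A) tail, and 36 of 132 (27.3%) had at least 18 A in some 25 bases of the 50 bp downstream, against 28.8%. With at least 22 A the share was 4.55%. Of 115 intronic peaks that lay in a numbered intron of the canonical transcript, 48 (41.7%, 33.1% to 50.9%) were in intron 1. Intron 1 made up 27.2% of the intronic bases of these genes, weighted by their peaks. Neither share was taken for all protein-coding genes, so a difference of OXPHOS genes from other genes cannot be read from them. For 39 of the 132 (29.5%) the summit also lay in another gene, beside 11.2% over all genes.

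The tallest intronic peak was in intron 1 of NDUFB10, with 88 reads, a width of 1138 bp, no hexamer and 1293 reads in the 10 kb around it, where RPS2 lies. The next were intron 6 of SDHA with 53 reads and intron 1 of NDUFB4 with 40. UQCR11 had 39 in intron 1, NDUFB6 35 in intron 2 and NDUFA12 34 in intron 2. In 7 of the 43 genes with both, the tallest intronic peak was higher than the canonical-end peak (16.3%, interval 8.12% to 30%), beside 40.6% of the 8020 protein-coding genes with both, with no match for gene length. In SDHA the intron 6 peak was also higher than the 28 reads near its end, and an AATAAA started 22 bp before its edge. The last 100 bases before that edge matched the pseudogene SDHAP1 in 89 positions and SDHAP2 in 85. Whether reads of the 3 loci were exchanged was not tested. Of 183 processed pseudogenes (intronless copies) named after 48 OXPHOS genes, none had a peak past the cutoff (0%, upper bound of the 95% Wilson interval 2.06%), beside 5.81% of all 10658 processed pseudogenes.

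Between 600 and 4000 bp past the 3′ end of the gene, 34 of 89 genes (38.2%, interval 28.8% to 48.6%) had a peak, beside 26.1% of all protein-coding genes. Most of these 47 peaks lay at other genes, and only 8, in 8 genes, had no other gene body and no coding end at the summit. COX6A1 had 76 and 55 reads there, the first at the end of TRIAP1. ATP5F1D had 56 reads in a noncoding gene, COX7A2L 50 at the end of EML4, NDUFB10 43 in RPS2, and COX6B2 42 at the end of KMT5C. Where no other gene lay in that stretch, 5 of 34 OXPHOS genes (14.7%) and 13.3% of 9181 protein-coding genes had a peak. The 5 were NDUFA1, NDUFA12, NDUFB11, UQCR10 and UQCRQ. The peak past UQCRQ, a small subunit of complex III, had 41 reads 1798 bp past the end of the gene, with AGTAAA in the window before its edge.

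Other genes of the pathway were read in the same list. Of 48 assembly factor genes, which build the complexes but are not part of them, 33 had a canonical-end peak and 43 a peak at some annotated end, with a median of 24 reads and a mean of 4.06 intronic peaks. SURF1, needed for complex IV, was the highest with 79, at a peak whose edge lay 475 bp past its annotated end. Of 19 other respiratory genes, such as cytochrome c and enzymes of ubiquinone synthesis, 15 and 17 had such peaks, with a median of 29 reads. CYCS, cytochrome c, had 32 at its canonical end and 70 at another own end. Among 11 regulators of respiratory genes, 8 had a canonical-end peak with a median of 18.5. ESRRA had 92, with the edge 126 bp past its annotated end, and PPARGC1A, the coactivator PGC-1 alpha, 11. Whether neighbouring genes lay at the peaks of SURF1 and ESRRA was not examined, so their heights may not belong to these genes. The marker lists were chosen with earlier results of these data known, so they are no independent check of the cell line. All 12 neuroblastoma markers had a peak at an annotated end, beside 64.1% of all protein-coding genes. The tallest such peak of each ranged from 19 reads for DBH to 123 for PHOX2A. MYCN had 100, away from its canonical end. Of 10 markers of other cell types, 3 had one, with 7 to 15 reads.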

How the data were processed

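Poly(A) 3′-seq libraries of IMR-32 cells (2 each for DMSO, THZ531 at 2 h and THZ531 at 6 h) were, per the study's methods, mapped to GRCh38 with STAR (2.5.1b in the submitters' processing notes), keeping reads with up to 20 placements, and merged. Which samples were merged is not listed, and they are taken here to be these 6. The authors called peaks with MACS2 2.1.1, extending reads to 100 bp, with no control. Per peak, the authors' list holds a ratio (fold enrichment over the local background) at the summit, its −log10 p-value and −log10 q-value, and the offset of the summit in bp.

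Reads at the summit and reads in the surrounding 10 kb were solved from the fold and the −log10 p-value, since MACS2 uses a Poisson tail. Refitted −log10 p-values differed from the deposited ones by at most 1.72e-04. The steps were checked on simulated peaks. Coordinates are 1-based, and Gencode release 44 was used, where the study used release 27. Transcript ends span 200 bp before to 600 bp past an annotated end. The gene strand set the 3′ edge. The 12 hexamers named in the results, overlaps allowed, were searched in the 100 bp before it, on the gene strand and, as a reference, the opposite one. An A stretch was at least 22 A in 25 bases of the 50 bp after the edge. Intervals are 95% Wilson intervals. Python 3.11.15, numpy 2.4.6 and scipy 1.17.1 were used.

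The genes and lists were chosen with earlier results of these data known. The genes named are the 3 with the tallest canonical-end peak in each complex, those with no such peak or no hexamer there, those with the most or tallest intronic, transcript-end or downstream peaks, the shortest and longest, and the genes of the fixed subunit lists, of which 1 is not reported here. Genes of other pathways were named after their values were seen. No test between groups was possible, and alternatives are given at the end.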

Additional observations from a re-analysis of the deposited data

Results flagged for a closer look

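Pseudogenes named after OXPHOS genes were outside the gene counts above, and 3 of them had a peak past the cutoff on q. All 3 are unprocessed copies of SDHA. The tallest peak in SDHAP2 had 25 reads at the summit, that in SDHAP1 24 and that in SDHAP3 18. For the intron 11 peak of SDHA with 11 reads at chr5:242475-242576, 96 of the 100 bases before the 3′ edge matched SDHAP3. Whether these reads come from the pseudogenes or from SDHA was not tested.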

How the results depend on the processing

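No paired analysis was possible because all libraries were merged into 1 list, and for the same reason no library could be left out. Of 39 alternatives tried on 10 results, 20 stayed within 1.5 times the count or inside the main interval. With no cutoff on q, the share of peaks in introns was 39.8% and at transcript ends 40.7%. With −log10 q of at least 20, 91 peaks in all, 9.89% in introns and 82.4% at ends remained, with 40 genes with a canonical-end peak, 9 with an intronic peak, 5 with a peak 600 to 4000 bp past the end, and medians of 38.0 reads and a 13.4-fold enrichment at the tallest canonical-end peak (9.48-fold at the main cutoff). With ends within 100 bp either side, the share at transcript ends was 37.1%, and with ends of canonical transcripts only 26.8%. Without summits in the body of another gene, 247 peaks and 33 genes with an intronic peak were left. With only peaks that had a hexamer, 28 genes had an intronic peak. The share of canonical-end peaks with a hexamer was 63.9% for AATAAA alone, 80.6% with a window of 50 bp and 31.9% with a window that ended at the summit, which lies before the edge. The share of genes with a peak past the end was 14.7% where no other gene lay there. The canonical-end count was 74 when the 3′ edge had to lie in the window and 83 with any annotated end, both added after the data were seen, as was leaving out intronic peaks with at least 18 A downstream, which left 41 genes. Height counts distinct read starts and saturates at 200, so it limits comparisons of strong ends.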

Other observations

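The mitochondrial genome, which encodes a few central subunits of complexes I, III, IV and V, had 10 peaks in the same list. At 9 of them the summit held 188 to 200 reads, at or near the limit of 200, and the 10 kb around held 6023 to 15544 reads, beside a median of 223 around the canonical ends of the nuclear genes. The peaks of MT-ND1 had 191 and 194 reads, that of MT-CYB 199 and that of MT-CO1 188. Fold enrichment was at most 3.27, and only 5 of the 10 passed the cutoff on q.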
